A study of Mus musculus with 20 samples.

Results

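Whole mouse embryos at E12.5 were compared with whole embryos at E10.5, where E stands for embryonic day, over every gene that a probe set annotated with a single symbol measured. The members were the 2 arrays labelled E12.5 and the 3 arrays labelled E10.5, of 20 arrays in a series of 8 stages from E7.5 to E18.5. Both groups were wild-type C57BL/6 embryos of mixed sex kept specific-pathogen free, taken without the amnion. Total RNA of several embryos was pooled for each sample, labelled with biotin and put on 1 Affymetrix Mouse Genome 430 2.0 array. No mutant, treatment or transgene was part of the design. With 2 arrays against 3, precision is limited by their number. The series calls the samples biological replicates, so a p-value measures the spread between such pools. Because whole embryos were used, more cells of a type and more RNA per cell cannot be told apart.

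These 2 days are a time of organ differentiation in the mouse. The liver bud becomes the main site of blood formation and begins to secrete plasma proteins, and limb and trunk mesenchyme condenses into cartilage. Myoblasts fuse into the first muscle fibres, lens fibre cells elongate, and neurons leave the cell cycle in the brain and spinal cord. The tail bud meanwhile nears the end of its activity, and regulators of early embryonic growth such as the RNA-binding protein Lin28a are withdrawn.

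Stage coincided with a difference between sets of arrays. The E12.5 arrays shared with those of E14.5 to E18.5, and the E10.5 arrays with those of E7.5 to E9.5, a typical level of the control probe sets and of the dimmer genes. The labels name no batch. The bacterial poly-A controls, for RNA spiked into a sample before labelling, had geometric mean signals of 394 and 429 at E12.5, against 6.86, 20.02 and 28.4 at E10.5. The median signal of an array was 156 and 158 at E12.5, against 79.9 to 91.1 at E10.5, although every array had been scaled to the same trimmed mean. The ratio of 3' to 5' signal of Gapdh, used as a sign of RNA integrity and labelling, was 0.703 and 0.728 at E12.5, against 0.808 to 0.833 at E10.5. The same ratio of actin was 1.231 and 1.278 at E12.5, against 1.075 to 1.172 at E10.5, a difference in the other direction. Developmental stage and array set therefore cannot be told apart. A change is reported here as a rise or a fall only if it passed on the deposited signals and again after quantile normalization, which gives all arrays the same distribution of values.

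Change is the difference of log2(signal + 25.9), E12.5 minus E10.5, with the standard error (SE) of a limma fit of all 20 arrays and a Benjamini-Hochberg adjusted p over 14051 genes. The scale understates the change of dim genes, and signals well under 25.9 have little weight on it. A call needed an adjusted p under 0.05 and at least a 2-fold change in each fit. By this rule 688 genes rose (4.9% of those tested) and 202 fell (1.44%). On the deposited signals alone 1485 genes rose (10.6%) and 284 fell (2.02%), while after quantile normalization alone 759 rose (5.4%) and 539 fell (3.84%). The share of calls that were rises was thus 77.3% for both scales together, 83.9% as deposited and 58.5% after quantile normalization. Over all genes the median change was 0.12 as deposited and -0.11 after quantile normalization, and each median of a gene list below is to be read against these. In the plot of the changes on both scales, the genes with the largest changes lie near the diagonal.

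**Figure D1:**
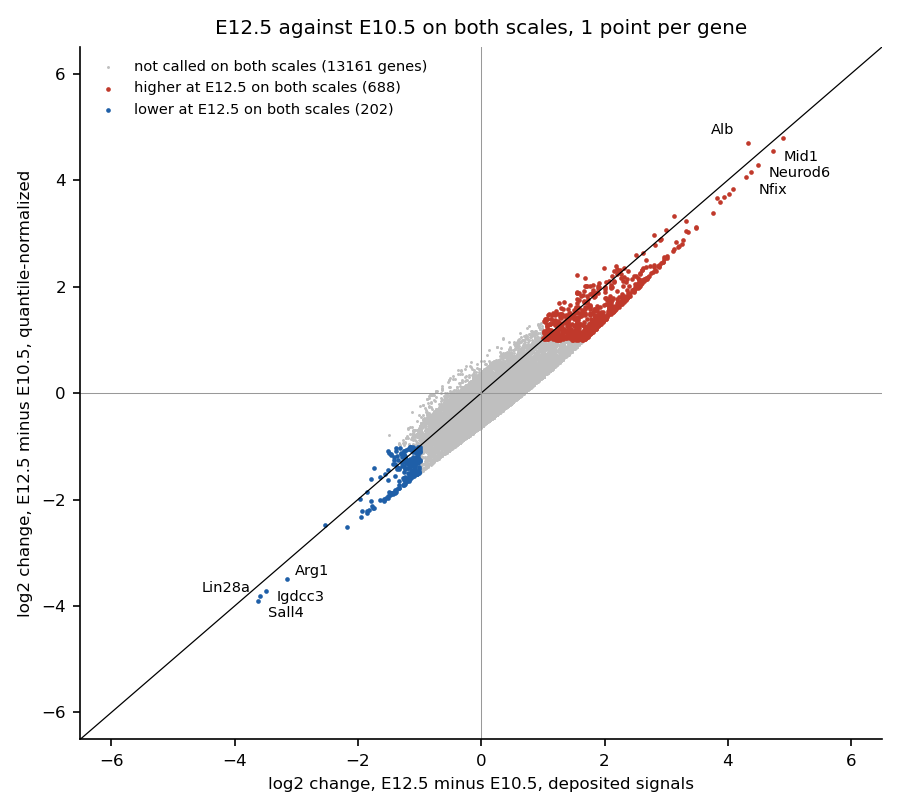
Log2 change of each gene at E12.5 against E10.5 on the deposited signals (x axis) and after quantile normalization (y axis), 1 point per gene, with the line of equal change. The 688 rises and 202 falls called on both scales are coloured, and the other genes tested are grey.

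The sizes of the calls depended on the scale. As deposited, the median rise was 1.76 on the log2 scale and the median fall -1.21, and 217 rises and 6 falls reached 4-fold. After quantile normalization the medians were 1.41 and -1.39, and 120 rises and 18 falls reached 4-fold. Among the dimmest 3513 genes by mean signal 234 rose and 36 fell, and among the brightest 3513 genes 65 rose and 75 fell. The dimmest had a median change of 0.434 as deposited and -0.105 after quantile normalization, and the brightest had -0.297 and -0.098. Genes are termed flat here if their stage means after quantile normalization lay within 1 log2 unit of each other inside each array set. Of the genes that rose, 186 (27%) were flat. So were 91 of the genes that fell (45%) and 8052 of all genes tested (57.3%). Flat genes could still have smaller trends inside a set, such as Tcf15, which changed by -0.87 from E12.5 to E14.5. Other probe sets existed for 402 of the genes that rose, and in 325 of these every other probe set also moved up on the deposited scale, while in 21 every one moved down. For the genes that fell, every other probe set also moved down in 74, and in 14 every one moved up. At least 1 other probe set reached 2-fold in 244 of the genes that rose and in 36 of those that fell. The other probe sets were the dimmer ones of each gene, and dim genes tended upward on the deposited scale. Agreement among rises is therefore weak evidence by itself, and the share over all genes was not computed.

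Gene lists for tissues and pathways were counted on the same calls. Among lists with at least 5 tested genes, the largest share of rises was that of the plasma proteins of the fetal liver, followed by matrix, tendon, cartilage and muscle genes, then by synaptic, lens and transmitter genes, and by red cell genes and myogenic factors at an equal share. Falls were most frequent among the Lin28 axis genes. Each share is set beside the 4.9% of rises and 1.44% of falls over all genes.

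**Figure D2:**
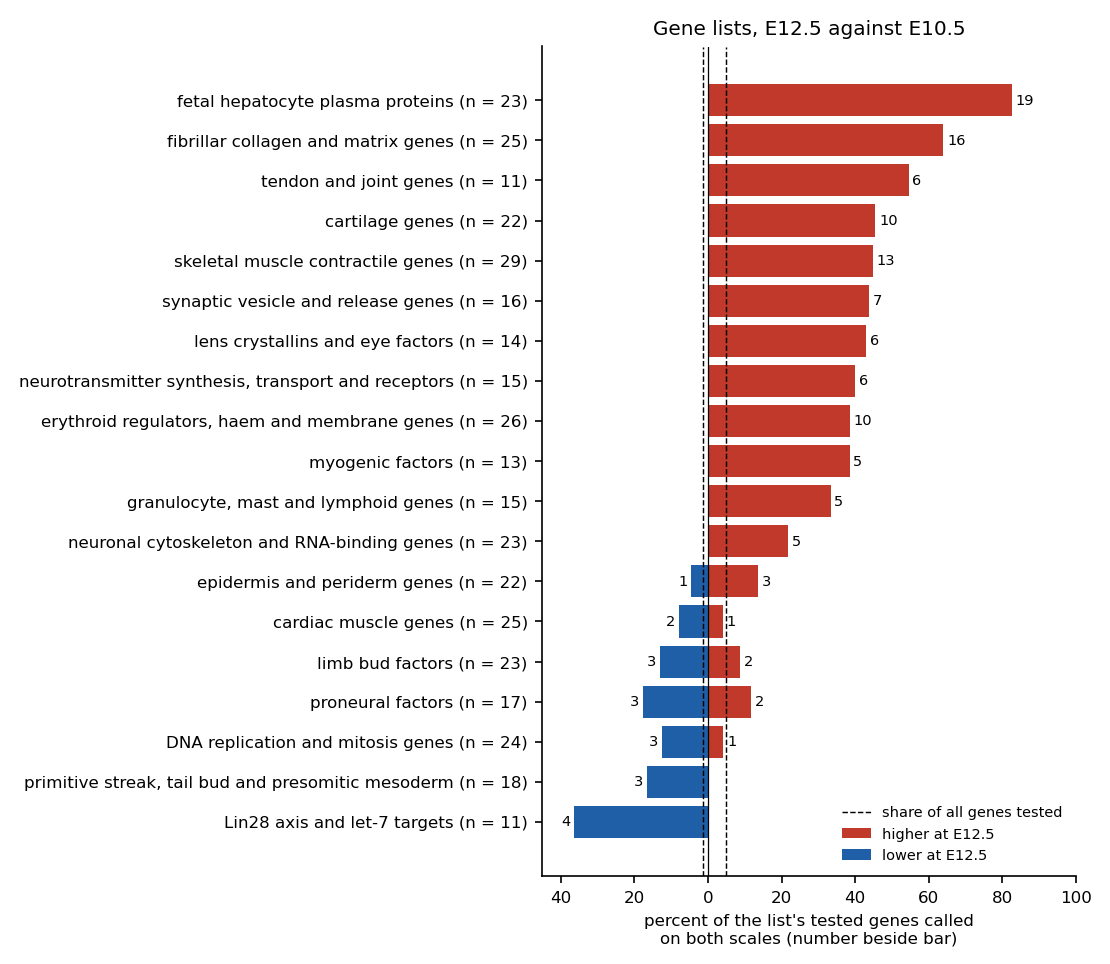
Percent of the tested genes of each list that were called higher (right of 0) or lower (left of 0) at E12.5 than at E10.5 on both scales, with the number of genes at the end of each bar and the number tested beside the list's name. Lists with at least 3 calls are shown, and dashed lines mark 4.9% and 1.44%, the shares over all genes tested.

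Genes for the liver's secreted proteins rose together. Of 23 plasma protein genes tested 19 rose (82.6%) and none fell, with a median change of 2.11 on both scales. Alb, which encodes serum albumin, had signals of 12380 and 13291 at E12.5, against 533, 567 and 760.2 at E10.5. The E12.5 arrays stood far above all of those at E10.5 (log2 change 4.33 ± 0.33 SE, adjusted p = 9.41e-09, and 4.70 after quantile normalization). Its stage means were 12.3, 25.1, 71.1 and 620.2 from E7.5 to E10.5, and 12835, 26313, 32409 and 35930 from E12.5 to E18.5, so the climb had begun before the step. Itih3, an inter-alpha-trypsin inhibitor chain, had 276 and 289 at E12.5, against 1.88, 43.8 and 2.37 at E10.5 (3.02 ± 0.36, adjusted p = 1.3e-06). Serpina6, the corticosteroid carrier of plasma, had 2111 and 2252 at E12.5, against 259, 245 and 310 at E10.5 (2.90 ± 0.29, adjusted p = 2.3e-07). Unlike Alb, Serpina6 was back at a mean of 122 at E18.5.

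Apoa1, the main protein of high-density lipoprotein, changed by 3.00 ± 0.39 (adjusted p = 4.66e-06), measured by a probe set that may cross-hybridise. Apoa1, Apom and Ttr were also high at E7.5, and visceral endoderm is known to make all of them. Mean Apoa1 signals were 21952 at E7.5, 316 at E10.5 and 2669 at E12.5. Apom, a lipocalin of lipoprotein particles, had means of 9515 at E7.5, 191 at E10.5 and 858 at E12.5, and rose by 2.04 ± 0.25 (adjusted p = 1.84e-06). Ttr, the thyroid hormone carrier, had means of 32223 at E7.5, 2192 at E10.5 and 8700 at E12.5, and rose by 1.99 ± 0.33 (adjusted p = 6.43e-05) on a probe set that may cross-hybridise. The 4 plasma protein genes without a call were Apoc3 (0.01), Hp (0.63), Vtn (0.41) and Fetub (0.30).

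Liver enzymes were rarely called. None of 19 tested genes for hepatocyte enzymes and factors rose on both scales, and the median change was 0.28 as deposited and -0.11 after quantile normalization. Hnf4a, a nuclear receptor of hepatocytes measured by a probe set that may cross-hybridise, changed by 1.37 and 0.74 on these scales, and the urea cycle gene Otc by 1.52 and 0.90. The urea cycle gene Arg1 fell, with signals of 135 and 119.6 at E12.5, against 1592, 1324 and 1129 at E10.5 (-3.15 ± 0.14, adjusted p = 1.93e-11). Its stage means were 597, 5171, 3465 and 1349 from E7.5 to E10.5, then 127, 198, 1120 and 2925 from E12.5 to E18.5, a low point at E12.5. Fabp1, the liver and gut fatty acid-binding protein, had 421 and 265 at E12.5, against 1.34, 18.45 and 2.24 at E10.5 (3.48 ± 0.31, adjusted p = 5.43e-08).

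The start-site regions of the albumin and fibrinogen beta-chain genes are shown because the plasma proteins were the list with the largest share of rises, and these genes were picked because the letters below occur in them. The called gene Apoa2, for example, has 2 promoter entries and no match in either. Fgb, which encodes the beta chain, rose by 1.72 as deposited and 1.40 after quantile normalization. Sequences are RefSeq's for GRCm38.p6 and run 5' to 3' on the gene's strand, from 250 bases before the start to 50 after it. Capitals mark GTTAAT or its complement ATTAAC, the half-site of hepatocyte nuclear factor 1. Alb lies on the plus strand at chr5:90460620-90460919 and Fgb on the minus strand at chr3:83049814-83050113.
Alb: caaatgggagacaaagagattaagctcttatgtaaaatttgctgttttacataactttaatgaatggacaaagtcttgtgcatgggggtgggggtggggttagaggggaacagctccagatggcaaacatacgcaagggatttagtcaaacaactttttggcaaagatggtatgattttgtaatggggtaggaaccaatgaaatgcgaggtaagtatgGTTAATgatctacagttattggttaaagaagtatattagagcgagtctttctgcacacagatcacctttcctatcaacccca
Fgb: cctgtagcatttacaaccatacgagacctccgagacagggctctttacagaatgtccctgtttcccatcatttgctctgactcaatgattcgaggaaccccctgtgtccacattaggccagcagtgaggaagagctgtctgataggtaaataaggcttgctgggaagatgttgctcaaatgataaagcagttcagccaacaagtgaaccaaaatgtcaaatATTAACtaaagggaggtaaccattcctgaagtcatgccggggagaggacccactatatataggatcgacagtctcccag
Searched on both strands, these letters stood in 7 of 21 promoters of the plasma protein genes tested (33.3%), for 18 genes with an entry, and in 2332 of 32851 promoters of all genes (7.1%). Among the plasma protein genes that rose they stood in 6 of 18 promoters. A match is a run of letters, and binding was not measured.

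**Figure D3:**
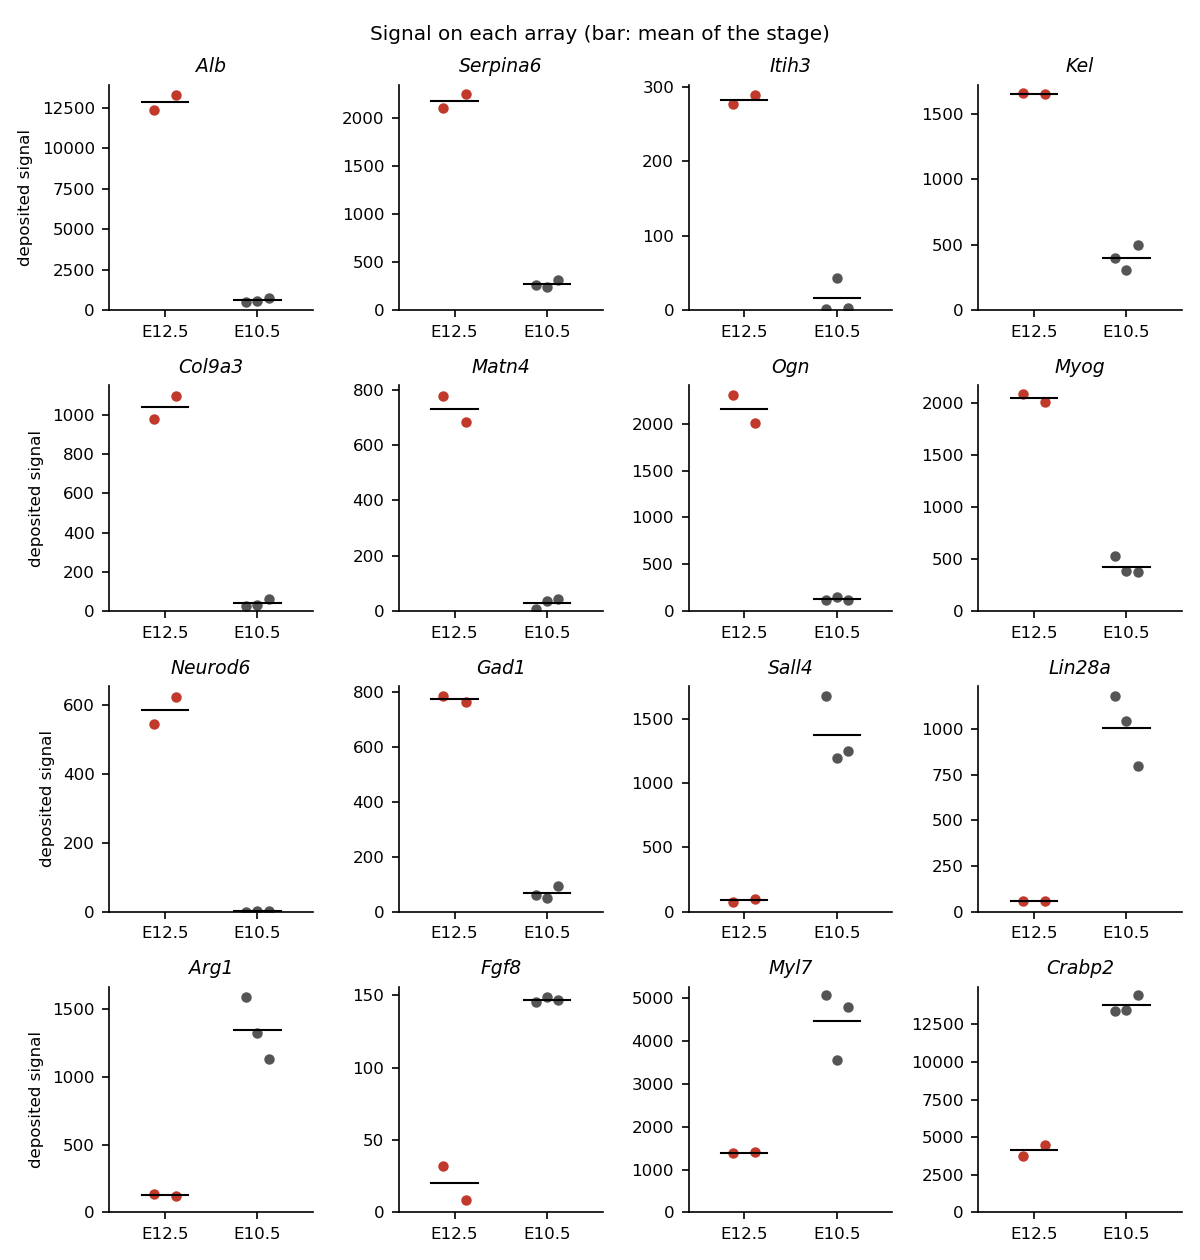
Deposited signal (y axis, linear from 0, separate for each panel) on each of the 2 E12.5 arrays and 3 E10.5 arrays for 16 genes, with a bar at the mean of the stage. The first 10 panels show genes with every E12.5 array above every E10.5 array, and the last 6, from Sall4 on, show the reverse.

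Red cell genes rose in part, while globins did not move together. Of 26 genes for erythroid regulators, haem synthesis and the red cell membrane 10 rose (38.5%) and none fell, with medians of 0.91 and 0.85 on the deposited and quantile scales. Kel, the Kell blood group protease, had 1655 and 1650 at E12.5, against 398, 310.1 and 497 at E10.5 (2.00 ± 0.23, adjusted p = 9.62e-07). Epb42, a protein of the membrane skeleton, rose by 1.76 ± 0.30, and Slc25a37, the mitochondrial iron importer, by 1.56 ± 0.17. Slc4a1, the anion exchanger band 3, rose by 1.55 ± 0.21 on a probe set that may cross-hybridise. Klf1 and Gata1, regulators of the lineage, changed by 0.21 and 0.56 and were not called.

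None of the 3 embryonic globin genes was called on both scales. Hbb-bh1, the early beta-like globin, had 16658 and 18806 at E12.5, against 42854, 46236 and 61551 at E10.5. It changed by -1.49 as deposited (adjusted p = 0.000125) and by -0.78 after quantile normalization, short of 2-fold. Hba-x changed by -0.88 and -0.11, and Hbb-y by -0.33 and 0.44, so the sign for Hbb-y depended on the scale. Of the adult globins, Hbb-b2 had 806 and 693 at E12.5, against 3.05, 32.6 and 50.6 at E10.5 (3.93 ± 0.41, adjusted p = 3.28e-07). The other probe set of Hbb-b2 changed by 0.69 as deposited and 0.03 after quantile normalization. The probe set of Hba-a2 had 58.9 and 27.5 at E12.5, against 194, 132 and 163 at E10.5, and fell by 1.48 ± 0.34. Its stage means were 74.0 to 179.7 up to E10.5 and 43.2 to 66.7 from E12.5 to E18.5, flat inside each array set. At E12.5 its signals lay under the array medians of 158 and 156, so this dim probe set says little about adult alpha globin. Globin copies are near identical and the probe sets of Hbb-b2, Hbb-bh1 and Hbb-y may cross-hybridise, so the division of signal between copies is uncertain.

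Some genes of granulocytes and mast cells rose. S100a9, a calcium-binding protein of granulocytes, had 537 and 626 at E12.5, against 1.49, 6.76 and 1.90 at E10.5 (4.37 ± 0.30, adjusted p = 3.65e-09). Its partner S100a8 had 1171 and 1228 at E12.5, against 1.69, 19.6 and 30.02 at E10.5 (4.89 ± 0.39), on a probe set that may cross-hybridise. Ngp, a neutrophil granule protein, rose by 2.35 ± 0.42 and Cpa3, the mast cell carboxypeptidase, by 1.94 ± 0.37. In all 5 of 15 genes of granulocytes, mast cells and lymphocytes rose (33.3%). Of 16 macrophage genes Lyz2, which encodes lysozyme, was the gene called, with 538 and 637 at E12.5, against 74.3, 194 and 182 at E10.5 (1.88 ± 0.35). The macrophage list had a median change of 0.78 as deposited and 0.33 after quantile normalization. Of 8 megakaryocyte genes Clec1b, a platelet receptor, fell by 1.21 ± 0.16 and none rose.

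Connective tissue genes rose broadly. Of 25 genes for fibrillar collagens and other matrix proteins 16 rose (64%) and none fell, with medians of 1.35 and 1.47. Ogn, the proteoglycan osteoglycin, had 2305 and 2011 at E12.5, against 112.9, 150.4 and 120.1 at E10.5 (3.83 ± 0.30, adjusted p = 1.29e-08), and its other probe set changed by 3.89. Col6a3, a chain of the microfibrillar collagen VI, had 1980 and 2250 at E12.5, against 370.2, 307 and 288 at E10.5 (2.63 ± 0.21, adjusted p = 1.8e-08). Col12a1 and Col14a1, collagens that sit on fibril surfaces, rose by 2.73 ± 0.38 and 2.36 ± 0.17. Other probe sets of Col12a1 changed by -0.29 to 1.12 and those of Col14a1 by 0.01 to 1.73. Col1a1, a chain of the main fibrillar collagen, had 4166 and 4517 at E12.5, against 1530, 1323 and 1456 at E10.5 (1.58 ± 0.19, adjusted p = 1.59e-06).

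Cartilage genes rose in 10 of 22 cases (45.5%) and none fell. Col9a3, a chain of cartilage collagen IX, had 980.4 and 1098 at E12.5, against 23.5, 32.3 and 59.8 at E10.5 (4.08 ± 0.29, adjusted p = 4.6e-09). One other probe set of Col9a3 changed by 3.76 and another by 0.40. The matrilin genes Matn4 and Matn1, for adaptor proteins of cartilage matrix, rose by 3.87 ± 0.41 and 3.01 ± 0.20. Matn4 had 777 and 683 at E12.5, against 5.75, 37.4 and 43.3 at E10.5, while Matn1 had 382 and 348 at E12.5, against 19.2, 24.8 and 23.8 at E10.5. Mia, a small secreted protein of cartilage and melanoma cells, rose by 3.76 ± 0.34. In contrast to these matrix genes, Sox9, the regulator of the lineage, changed by 0.21 and Col2a1, the main cartilage collagen, by 0.45, and neither was called. Col9a2 rose by 2.69 ± 0.36, with stage means of 13.2, 13.6, 21.6 and 23.6 up to E10.5 and 276, 468, 379.6 and 380.4 from E12.5.

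Of 11 tendon and joint genes 6 rose (54.5%). Tnmd, the tendon protein tenomodulin, had 509 and 559 at E12.5, against 71.3, 61.9 and 79.9 at E10.5 (2.53 ± 0.36, adjusted p = 1.24e-05). Kera, the proteoglycan keratocan, rose by 2.59 ± 0.27, and Chodl by 2.41 ± 0.30. Gdf5, a growth factor of future joints, rose by 2.46 ± 0.31 and then had lower stage means, 244 at E12.5, 149 at E14.5 and 98.5 at E16.5. Scx, the tendon regulator scleraxis, changed by 0.85 as deposited and 0.18 after quantile normalization and was not called. Of 10 bone genes Col1a1 and Phex were called, and Phex, an endopeptidase of bone mineral, had 78.4 and 107.2 at E12.5, against 11.9, 26.6 and 5.06 at E10.5. The other probe set of Phex changed by -0.40.

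Many skeletal muscle genes rose. Of 29 contractile genes 13 rose (44.8%), with medians of 1.3 and 1.02, and of 13 myogenic factors 5 rose (38.5%). Myog, the differentiation factor myogenin, had 2083 and 2003 at E12.5, against 528, 380.5 and 369.9 at E10.5 (2.21 ± 0.25, adjusted p = 7.38e-07). Myod1, which commits cells to the muscle lineage, rose by 2.20 ± 0.31, although its other probe set changed by 0.41. The fusion genes Mymx and Mymk rose by 3.11 ± 0.26 and 2.42 ± 0.31. Mymx had 521 and 601 at E12.5, against 29.98, 60.8 and 38.6 at E10.5. Pax3, Pax7, Myf5 and Myf6 were not called, with changes of -0.26, 0.37, 0.32 and -0.21.

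Among the contractile genes, the embryonic and perinatal myosins Myh3 and Myh8 rose by 2.22 ± 0.20 and 2.69 ± 0.24, and the giant filament protein gene Neb by 2.97 ± 0.23. Neb had 379 and 387 at E12.5, against 17.6, 21.6 and 42.4 at E10.5. Casq2, a calcium-binding protein of the sarcoplasmic reticulum, rose by 2.07 ± 0.43 on a probe set that may cross-hybridise. All 4 went on to higher means, and Myh8 had 268 at E12.5, 2639 at E14.5, 7172 at E16.5 and 25141 at E18.5. Myl1, the fast myosin light chain, rose by 1.81 as deposited and 2.03 after quantile normalization. Its promoter on the minus strand at chr1:66945007-66945306 is shown as a muscle example picked for its match, unlike that of Myog, which has none, with the E-box CAGCTG, a sequence bound by myogenic factors, in capitals.
Myl1: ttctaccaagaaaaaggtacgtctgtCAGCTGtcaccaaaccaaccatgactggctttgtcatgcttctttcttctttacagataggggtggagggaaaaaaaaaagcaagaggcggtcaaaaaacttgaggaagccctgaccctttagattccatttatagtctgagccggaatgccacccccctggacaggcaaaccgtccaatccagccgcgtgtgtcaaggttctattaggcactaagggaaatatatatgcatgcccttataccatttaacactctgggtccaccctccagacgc
CAGCTG, which reads the same on both strands, stood in 12 of 27 promoters of the contractile genes tested (44.4%), for 25 genes with an entry, and in 5355 of 32851 promoters of all genes (16.3%). Among the contractile genes that rose it stood in 4 of 11 promoters, so the match was not particular to them. For the red cell list, the GATA-factor sequence AGATAA or its complement TTATCT stood in 8 of 20 promoters (40%), for 18 genes with an entry, against 3672 of all (11.2%). Among the red cell genes that rose it stood in 5 of 8 promoters. A link of these letters to the changes was not tested.

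Of 25 cardiac genes 1 rose (4%) and 2 fell (8%). Myl7, the atrial myosin light chain, had 1391 and 1401 at E12.5, against 5079, 3548 and 4794 at E10.5 (-1.64 ± 0.12, adjusted p = 6.05e-09). Myh6, the alpha myosin heavy chain, fell by 1.03 ± 0.17 to 706 and 624 at E12.5, against 1436, 1261 and 1462 at E10.5. The gene that rose was Sln, sarcolipin, an inhibitor of the calcium pump that skeletal muscle also makes, with 679 and 673 at E12.5, against 72.9, 123 and 105.3 at E10.5. Its other probe set changed by 0.00. The cardiac list as a whole had a median of -0.10 as deposited and -0.44 after quantile normalization, and its summed signal was 32450 to 32842 at E12.5, against 35636 to 43679 at E10.5. Of 11 smooth muscle genes 1 rose (9.1%), Actg2, the enteric actin, by 1.73 ± 0.26. The list medians were 0.45 as deposited and -0.04 after quantile normalization. Of 22 endothelial genes 1 rose (4.5%, against 4.9% of all genes), Lyve1, a receptor of lymphatic vessels, by 2.02 ± 0.23. That list had medians of -0.10 and -0.36.

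Neuronal genes rose in several lists. Of 16 synaptic vesicle and release genes 7 rose (43.8%), of 15 transmitter genes 6 (40%) and of 23 cytoskeletal and RNA-binding genes of neurons 5 (21.7%), and none of them fell on both scales. Gad1, which makes the transmitter GABA, had 784 and 763 at E12.5, against 60.5, 50.4 and 93.2 at E10.5 (3.12 ± 0.25, adjusted p = 1.79e-08). Gad2, which makes it too, rose by 2.15 ± 0.25. The receptor genes Gria2, for glutamate, and Glra2, for glycine, rose by 2.96 ± 0.39 and 2.13 ± 0.34. Gria2 had 829.6 and 845 at E12.5, against 75.6, 84.98 and 94.2 at E10.5.

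Vamp2, a fusion protein of synaptic vesicles, had 969 and 807 at E12.5, against 184, 117 and 232 at E10.5 (2.20 ± 0.27, adjusted p = 1.91e-06). Its stage means were 139 to 178 up to E10.5 and 703 to 888 from E12.5, flat inside each array set. Rab3c and Syt4, which act in vesicle release, rose by 2.05 ± 0.30 and 2.05 ± 0.45, and Snap25, a fusion protein of the presynaptic membrane, by 1.57 ± 0.39. The other probe set of Snap25 changed by 0.33 as deposited and -0.09 after quantile normalization, and the 4 others of Rab3c by 0.12 to 1.70 as deposited. The microtubule-associated protein genes Mapt and Map2 rose by 1.88 ± 0.17 and 1.66 ± 0.18. Celf4, an RNA-binding protein of neurons, rose by 1.93 ± 0.23. Prph, an intermediate filament of peripheral neurons, rose by 1.86 ± 0.37 on a probe set that was flat inside each array set, and its 3 other probe sets changed by 0.02 to 0.44. Tubb3, a tubulin of young neurons, and Dcx, doublecortin, changed by 0.59 and 0.82 as deposited and were not called on both scales. Of the 23 cytoskeletal and RNA-binding genes 7 rose as deposited and 10 after quantile normalization. The list medians were 0.71 and 0.91, so a missing call on both scales does not mean no change.

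Regulators of neuron formation moved in opposite directions. Neurod6, a factor of cortical excitatory neurons, had 544 and 624 at E12.5, against 0.46, 1.57 and 1.76 at E10.5, the largest rise of the list (4.49 ± 0.23, adjusted p = 1.39e-10). Neurod2, of the same family, rose by 2.02 ± 0.44, while its 2 other probe sets changed by -0.43 and 1.08. Neurog1, which starts sensory neuron formation, had 265 and 326 at E12.5, against 908, 950.3 and 798 at E10.5 (-1.50 ± 0.28, adjusted p = 0.000201). Atoh1, a factor of dorsal interneurons, fell by 1.45 ± 0.30 to 93.2 and 153 at E12.5, against 452, 369.8 and 307 at E10.5. Neurod4, of the same family as Neurod6, fell by 1.2 on a probe set that may cross-hybridise. Of 17 proneural factors 2 thus rose (11.8%) and 3 fell (17.6%). Tbr1 and Bcl11b, both factors of cortical projection neurons, rose by 2.47 ± 0.41 and 2.08 ± 0.27, and Tac1, which encodes substance P, by 2.40 ± 0.26. The other probe set of Tac1 changed by 0.19 as deposited and -0.24 after quantile normalization.

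The progenitor genes of the neural tube stayed near the level of all genes. Of 21 tested, Ptn, a secreted growth factor, rose by 1.26 ± 0.24 and Sox3, a progenitor factor, fell by 1.04 ± 0.16, with a list median of -0.13 and -0.17. Nfix, a nuclear factor I gene, had 1755 and 1785 at E12.5, against 63.2, 89.3 and 49.5 at E10.5 (4.29 ± 0.28, adjusted p = 2.39e-09). It was among the 15 largest rises, and its 4 other probe sets changed by 0.00 to 3.83.

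Lens crystallins rose from low signals. Of 14 lens and eye genes 6 rose (42.9%) and none fell, with medians of 1.45 and 0.98. Cryga, a gamma crystallin, had 183 and 183.5 at E12.5, against 4.24, 5.36 and 2.51 at E10.5 (2.80 ± 0.31, adjusted p = 5.3e-07). Cryba1 and Crybb1, beta crystallins, rose by 2.61 ± 0.29 and 2.50 ± 0.25, and Cryaa, the chaperone alpha-A crystallin, by 2.55 ± 0.32. Their E10.5 signals were between 4.52 and 48.9 on every array. Of 22 genes of epidermis and periderm, the basal keratins Krt15, Krt5 and Krt14 rose by 2.36 ± 0.29, 2.03 ± 0.17 and 1.98 ± 0.34, the last on a probe set that may cross-hybridise and with others at 0.43 and 1.77. Krt18, a keratin of simple epithelia, fell by 1.02 ± 0.08.

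Sall4 and Lin28a had the largest falls of the genes named. Lin28a, which binds precursors of the let-7 microRNAs and blocks their maturation, had 61.2 and 56.4 at E12.5, against 1180, 1044 and 795 at E10.5 (-3.59 ± 0.23, adjusted p = 1.82e-09, and -3.82 after quantile normalization). Its stage means were 13932, 14347, 5852 and 1006 from E7.5 to E10.5 and 58.8, 44.2, 26.02 and 22.7 from E12.5 to E18.5, a decline already under way before the step. Sall4, a zinc-finger factor of early embryonic cells, had 73.2 and 100.9 at E12.5, against 1674, 1191 and 1250 at E10.5 (-3.62 ± 0.26, adjusted p = 4.6e-09). Trim71, a known let-7 target, had 113 and 108 at E12.5, against 485, 485 and 345 at E10.5 (-1.75 ± 0.21). Dusp9, a MAP kinase phosphatase, and Arid3b, a DNA-binding protein, fell by 1.82 ± 0.17 and 1.13 ± 0.16. Of 11 genes of the Lin28 axis and known let-7 targets 4 fell (36.4%) and none rose, with medians of -0.95 and -0.84. Hmga2 and Igf2bp1, further targets of let-7, changed by -1.08 and -0.95 as deposited and by -0.69 and -0.84 after quantile normalization, short of a call.

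Igdcc3, a cell-surface protein of the immunoglobulin family, had 429 and 472 at E12.5, against 5830, 5636 and 4597 at E10.5 (-3.49 ± 0.12, adjusted p = 1.93e-13), although 1 of its 2 other probe sets changed by 0.98 and the other by -1.95. Crabp2, a carrier of retinoic acid, had 3765 and 4473 at E12.5, against 13406, 13465 and 14461 at E10.5 (-1.74 ± 0.09). Metrn, a secreted protein of glia and progenitors, Greb1, an oestrogen receptor cofactor, and Nr2f6, an orphan nuclear receptor, fell by 1.85 ± 0.10, 1.85 ± 0.14 and 1.79 ± 0.16. Other probe sets of Greb1 changed by -0.56 to 0.50. The remaining genes among the 15 largest falls were Ush1c (-2.17), Hoxb5os (-1.97), Fam181a (-1.85) and Ppp1r14a (-1.77).

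**Figure D4:**
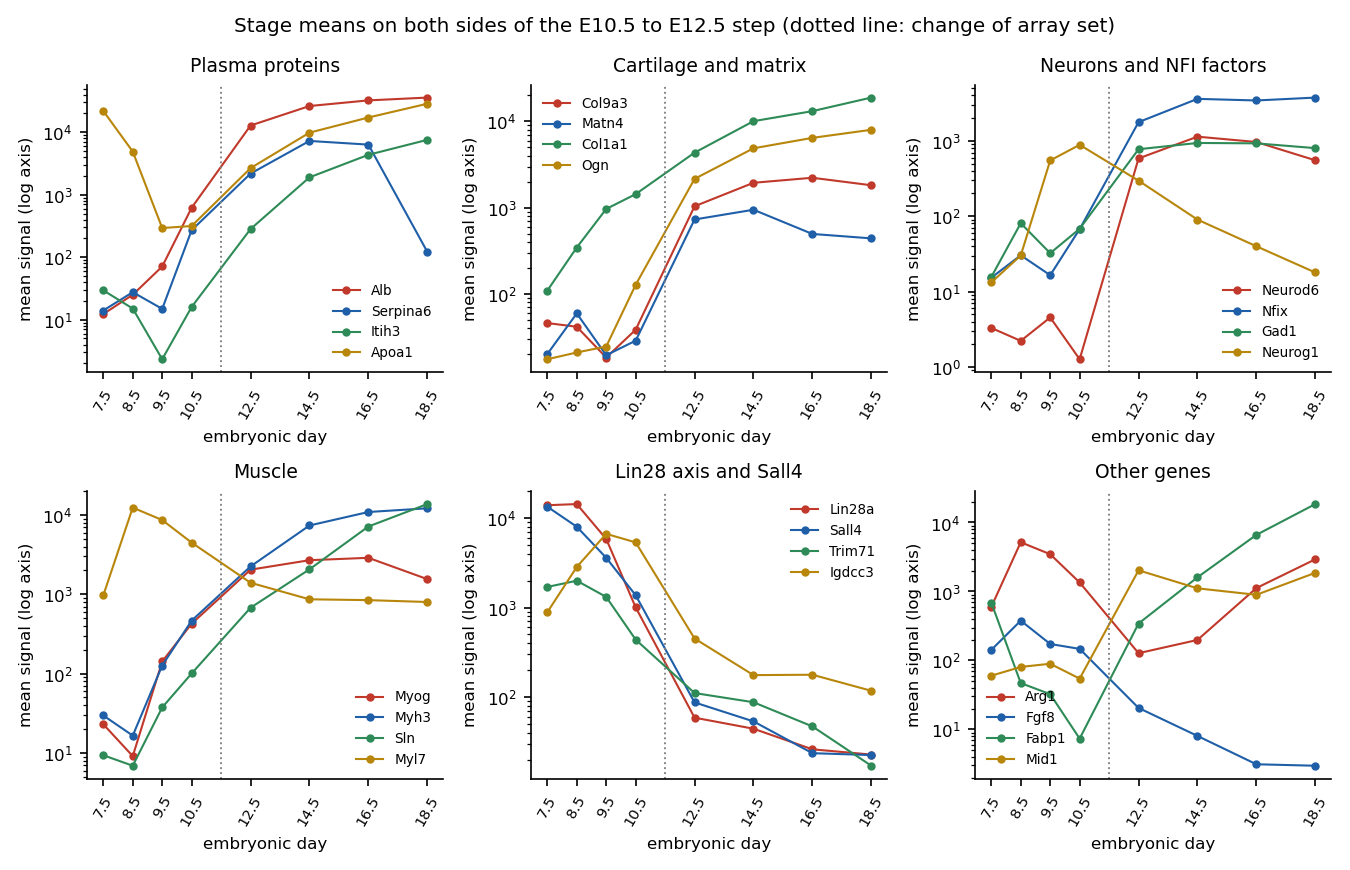
Mean deposited signal (log axis) of 24 genes at the 8 stages from E7.5 to E18.5, over 3 arrays a stage through E10.5 and 2 a stage after it, and a dotted line where the array set changes. Alb, Myog and Lin28a continue slopes that began before E10.5, while Mid1 and Neurod6 are low up to E10.5 and stay high from E12.5.

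Genes of the tail bud and early patterning fell in a few cases. Of 18 genes of the primitive streak, tail bud and presomitic mesoderm 3 fell (16.7%), namely Lin28a, Fgf8 and Cyp26a1. Fgf8, a growth factor of the tail bud and limb ridge, had 32.04 and 8.89 at E12.5, against 145, 149 and 147 at E10.5 (-1.95 ± 0.27, adjusted p = 7.55e-06). Cyp26a1, which degrades retinoic acid, fell by 1.18 ± 0.29 to 108 and 191 at E12.5, against 355, 369.9 and 360.3 at E10.5. Tcf15, a somite factor, fell by 1.23 ± 0.13. Hox genes gave 1 call in each of 3 lists. Of 10 tested in paralogues 1 to 4, Hoxb1 fell by 1.25 ± 0.18. Of 8 in paralogues 5 to 8, Hoxa7 fell by 1.58 ± 0.33. Of 11 in paralogues 9 to 13, Hoxd13, which patterns digits, rose. It had 1111 and 1023 at E12.5, against 296, 308 and 286 at E10.5 (1.76 ± 0.25). In the same order, the list medians were -0.07, 0.16 and 0.32 as deposited, and -0.34, -0.04 and -0.12 after quantile normalization.

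Limb bud factors were mixed, with 2 rises (8.7%) and 3 falls (13%) among 23. Bmp2, a bone morphogenetic protein, had 584 and 655 at E12.5, against 125, 152 and 147 at E10.5 (1.95 ± 0.19), and Gdf5, given above, was the other rise. Shh, the signal of limb polarity, floor plate and gut, had 737 and 794 at E12.5, against 2033, 1774 and 2079 at E10.5 (-1.33 ± 0.11, adjusted p = 3.2e-08). Fgf8 and the mesenchymal factor Prrx2 (-1.0, and -1.11 after quantile normalization) were the other falls. Osr1, a factor of kidney, limb and facial mesenchyme, rose by 2.58 ± 0.36, and Lhx1, of kidney and neurons, by 1.22 ± 0.19.

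Cell-cycle genes had medians below those of all genes, and their share of falls was above that of all genes. Of 24 genes of DNA replication and mitosis 3 fell and 1 rose, with medians of -0.83 as deposited and -0.46 after quantile normalization. The mitotic kinase Plk1 had 1392 and 1230 at E12.5, against 3414, 3118 and 2927 at E10.5 (-1.25 ± 0.11, adjusted p = 3.02e-08). The mitotic kinase Aurka fell by 1.15 ± 0.08 and the replication factor Cdc45 by 1.15 ± 0.10, but their other probe sets changed by 0.42 and 1.72. The gene that rose was Tyms, thymidylate synthase, by 1.80 ± 0.27, while its 3 other probe sets changed by 0.21 to 0.55. A list of 13 tested ribosomal protein genes (medians -0.81 and -0.19), subunits of oxidative phosphorylation (20 tested, -0.62 and -0.32) and commonly used reference genes (12 tested, -0.38 and -0.04) gave no call on both scales. Over all 51 cytosolic ribosomal protein genes tested, a family taken by symbol after the values were seen, the medians were -0.63 and -0.03. In it Rpl39l and Rpl12 rose, by 1.89 and 1.29, and Rps4l and Rpl27a fell, by 1.26 and 1.19. Of 19 genes of glycolysis and hypoxia, Aldoc rose by 1.81 ± 0.22 and Pfkl fell by 1.14 ± 0.08. The other probe set of Aldoc changed by -0.03, and those of Pfkl by -1.10 and 0.90.

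Growth regulators gave single calls, 1 rise among 15 imprinted genes (6.7%) and 1 among 12 genes for insulin-like growth factor binding proteins and receptors (8.3%). Over all genes 4.9% rose. Meg3, an imprinted long noncoding RNA, had 14123 and 14538 at E12.5, against 3966, 4930 and 4482 at E10.5 (1.68 ± 0.14, adjusted p = 2.64e-08), on a probe set that may cross-hybridise, with 10 other probe sets between 1.35 and 3.45. Igfbp3, a carrier of insulin-like growth factors, rose by 1.51 ± 0.15. Both Meg3 and Igfbp3 were flat inside each array set. Of the 17 immediate early and heat shock genes the heat shock gene Hspa1b was called, with 704 and 638 at E12.5, against 157, 245 and 322 at E10.5. The sex-linked genes Xist, expressed in females, and Eif2s3y, on the Y chromosome, rose by 1.22 ± 0.37 and 1.80 ± 0.32. The other probe set of Eif2s3y changed by 0.49. Eif2s3y had 510.0 and 554 at E12.5, against 119.9, 289 and 63.3 at E10.5, and Xist had 5553 and 6017 at E12.5, against 3472, 1670 and 2599 at E10.5. The part of the pools' sex makeup in these values was not tested.

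Of the other genes among the 15 largest rises, Mid1, a ubiquitin ligase of microtubules, had 1943 and 2109 at E12.5, against 72.2, 64.8 and 26.5 at E10.5 (4.73 ± 0.28, adjusted p = 9.16e-10). Its means were 54.5 to 89.4 at all stages up to E10.5 and 894 to 2026 from E12.5 on, and its 2 other probe sets changed by -0.07 and 1.02. Rtl3, of retrotransposon origin, Col8a1, a network collagen, and Egfl6, a secreted matrix protein, rose by 4.02 ± 0.28, 3.48 ± 0.42 and 3.36 ± 0.28. Agtr2, a receptor of angiotensin II, had 1325 and 1265 at E12.5, against 111.1, 96.3 and 111.2 at E10.5 (3.32 ± 0.23, adjusted p = 3.52e-09). Tent5c, a poly(A) polymerase, rose by 3.32 ± 0.29.

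Besides the embryonic globins and the ribosomal, oxidative phosphorylation and reference gene lists given above, the lists without a single call on both scales were trophoblast, pluripotency and germ cell genes, neural crest and early glia, melanocyte genes, and those of the pituitary, thyroid, thymus and parathyroid. Pluripotency and germ cell genes (13 tested) had summed deposited signals of 1512 to 1536 at E12.5, against 931 to 1201 at E10.5, and trophoblast genes (9 tested) 1377 to 1450 at E12.5, against 1147 to 1379 at E10.5. Their median changes were 0.17 and 0.17 as deposited but -0.23 and -0.38 after quantile normalization, so the direction depended on the scale. On the deposited scale alone limma called 2 rises among the pluripotency and germ cell genes and 2 among the trophoblast genes. Of 14 lung genes 1 fell (7.1%), Shh, and of 20 genes of pancreas and gut 1 rose (5%), Fabp1.

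A further test asked whether the change over these 2 days differed from that over the next 2, E14.5 against E12.5, with the shared E12.5 arrays accounted for in the contrast. In 375 genes (2.67% of those tested) the earlier change was higher by at least 1 log2 unit on both scales, and in 290 (2.06%) it was lower. Without the first E12.5 array these counts were 123 and 152, and without the second 172 and 209. Hoxd13 had the change of 1.76 given above and then means of 1067 at E12.5 and 360 at E14.5, a difference of 3.28 between the steps (adjusted p = 0.000205). Alb went on up, more slowly, with a difference of 3.34 (adjusted p = 0.0012). Neb, Myh8 and Itih3 were not called in this test, with differences of 1.58, -0.49 and 0.38. For Arg1 the difference was -3.70 (adjusted p = 1.56e-07), and for Lin28a -3.32 (adjusted p = 6.24e-05). Lin28a, at a mean of 58.8 at E12.5 with a pseudocount of 25.9, could not have fallen as far again on this scale. Its difference therefore does not show that its decline slowed. The next step lies inside 1 array set and the earlier step between 2, and their parts in these differences cannot be told apart.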

How the data were processed

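The 5 arrays compared are 2 of E12.5 and 3 of E10.5, grouped by the labelled stage. The authors deposited MAS5 signals, a linear intensity, for 45101 probe sets. MAS5 is named in the submitters' processing notes, and its version and settings are not given in the sources used here. Of these, 34945 probe sets that are not controls carry a single gene symbol in the platform's annotation, 932 carry several and 9160 none, and only the first were used. Entrez identifiers of 34741 matched RefSeq genes. Where several probe sets measured a gene, that of highest average log2 signal stood for it. Testing kept 14051 of 18193 genes, whose signal passed the array's median on 2 or more of the 20 arrays. As pseudocount, 25.9 was used, the middle value among the arrays' 25th percentiles.

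The limma package (3.58.1, in R 4.3.3) fitted 8 stage means to all 20 arrays with lmFit and a trended eBayes, leaving 12 residual degrees of freedom, in two-sided tests, once on the deposited signals and once after limma's quantile normalization. Called genes had an adjusted p under 0.05 and at least 2-fold change in the same direction in both fits. An exact permutation test of 2 arrays against 3 cannot go below p = 0.1, so none is given. The replicate numbers did not pair the arrays, with correlations of deviations between -0.014 and 0.014, and the fit without a replicate block was kept.

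Members and gene lists were chosen with earlier results of these data known, and lists are described by counts and medians with no set test. Named genes are the 15 largest rises and falls among called genes with no overlap of arrays, leaving out uncharacterised symbols and probe sets that may cross-hybridise (68 of the rises, 23 of the falls), then up to 4 called members of each list, members against their list's direction, and all members of lists of up to 6 genes. Members given as not called, and Fgb, Myl1, Neurod4, Prrx2 and Apoa2, were chosen after their values were seen. Promoters were RefSeq's, 250 bases before to 50 after a start. Detection calls were not used here.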

Additional observations from a re-analysis of the deposited data

How the results depend on the processing

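Of 688 rises and 202 falls, other scalings moved the counts as follows. The deposited scale alone gave 1485 rises and quantile normalization alone 539 falls. A pseudocount 4 times larger (103.6) gave 400 rises and 116 falls, the mean of all probe sets 134 falls, every probe set 1660 rises and 363 falls, and no minimum fold 2098 rises and 2512 falls. Without each array in turn the counts ran from 561 to 695 rises and from 188 to 226 falls. With a replicate block, which the numbers do not justify, they were 697 and 222. The other alternatives, among them 75th percentile scaling, cyclic loess, filters, no trend and the 5 arrays alone, left both counts within 1.5 times. For the test against the next step, 375 higher and 290 lower, the deposited scale alone gave 629 higher, quantile normalization alone 655 lower, every probe set 965 higher, and no minimum fold 724 higher and 1043 lower. Without an array that count ran from 123 to 377 higher and from 152 to 309 lower. It was 123 and 152 without the first E12.5 array and 172 higher without the second, so both E12.5 arrays decide it. With a replicate block it was 447 and 321. It could not be computed from the 5 arrays alone or with quantile normalization over them. The cause of these moves was not tested, except that fewer or more features and samples enter by construction where they are named.

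Of 122 named genes, 21 lost their call with the larger pseudocount, 19 with the mean of all probe sets, 12 and 10 without an E12.5 array, 5 with cyclic loess and 1 with the replicate block. Cdc45 changed sign to 0.28 with the mean of all probe sets. The medians of many lists changed sign between scalings. Myogenic factors, hepatocyte enzymes, limb bud factors, proneural factors and Hox paralogues 5 to 8 and 9 to 13 did so. So did somite, craniofacial, smooth muscle, epidermis, lung, kidney, gut, pituitary and imprinted genes. Visceral endoderm, trophoblast and pluripotency genes did so too. The medians of plasma proteins, matrix, cartilage, contractile, synaptic, lens, red cell and Lin28 axis genes kept their sign under the 5 scalings tried. Dim genes are limited by signal near the pseudocount.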

Other observations

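Further groups were taken by gene symbol after their values had been seen, so they carry no test and support nothing. Their counts are to be read beside the shares of all genes tested, 4.9% rises, 1.44% falls and 57.3% flat. Of 11 tested long RNAs named for or known to hold microRNAs 8 rose on both scales and none fell, with medians of 1.57 and 1.5 on the deposited and quantile scales. Mir124a-1hg, host of the neuronal microRNA miR-124, had 1317 and 901 at E12.5, against 95.7, 113 and 90.03 at E10.5 (3.16 ± 0.42), and Mir124-2hg, another host of it, rose by 1.72 ± 0.19. Dleu2 had 477 and 432 at E12.5, against 58.03, 64.3 and 78.7 at E10.5 (2.37 ± 0.30), and Mir22hg rose by 2.06 ± 0.35. Mir99ahg had 502 and 539 at E12.5, against 199, 133 and 148 at E10.5 (1.57 ± 0.36). The host RNAs were measured, and the mature microRNAs were not. Mature sequences from RefSeq (GRCm38.p6) are given for loci at these hosts, with the seed, bases 2 to 8, in capitals. The locus of miR-16-5p lies inside Dleu2 on chromosome 14 and that of miR-22-3p inside Mir22hg on chromosome 11. Those of let-7c-5p and miR-125b-5p, both known regulators of Lin28a, lie 41.2 and 87.9 kb past the annotated end of Mir99ahg on chromosome 16.
let-7c-5p: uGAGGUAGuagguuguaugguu
miR-125b-5p: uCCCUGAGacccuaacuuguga
miR-16-5p: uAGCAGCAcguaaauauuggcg
miR-22-3p: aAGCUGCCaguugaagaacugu

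Of the 4 nuclear factor I genes, regulators of late progenitors and glia, 3 rose. Nfib had 2359 and 2146 at E12.5, against 320.0, 216.5 and 305 at E10.5 (2.91 ± 0.25), and Nfia had 1474 and 1613 at E12.5, against 352, 219 and 267 at E10.5 (2.38 ± 0.21). Their stage means were 14.8, 26.2, 80.8 and 281 for Nfib and 7.49, 9.29, 67.2 and 279 for Nfia from E7.5 to E10.5. Of 8 voltage-gated sodium channel genes 4 rose, among them Scn3a by 2.20 ± 0.24 and Scn3b by 2.09 ± 0.32. Of 39 collagen genes 17 rose and none fell.

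Of 10 subunits of the RNA exosome, the complex that degrades RNA from its 3' end, 5 fell and none rose, with medians of -1.02 and -0.98. Exosc7 had 1635 and 1802 at E12.5, against 3882, 3671 and 3687 at E10.5. Of the 10, 9 were flat inside each array set, as were 57.3% of all genes tested. Of 76 mitochondrial ribosomal protein genes 4 fell, with medians of -0.68 and -0.61, and 74 were flat. The genomic span of genes differed as well. Its median was 29.6 kb for the rises, 11.1 kb for the falls and 22.6 kb for all genes tested, and long noncoding RNAs made up 6.29%, 2.97% and 2.64% of them.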
